A study of Homo sapiens with 8 samples.

Results

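The genes described here are 38 genes of DNA synthesis, the DNA polymerases, the sliding clamp and its loaders, and the enzymes that supply deoxynucleotides, together with factors that finish lagging strands, coat single-stranded DNA, deposit histones and protect the fork. A gene entered by its symbol in the array annotation. All 38 had a probe, of 43317 gene names on the array. They were covered by 48 probes, and where a gene had several probes the brightest stood for it. In 1 channel or both, every one of the 38 genes stood well above background on all 8 arrays, in 304 of 304 combinations of gene and array.

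In replication, polymerase alpha with primase lays a short primer, the clamp loader RFC closes the PCNA ring around primed DNA, and polymerases delta and epsilon extend from it while held by the clamp. RPA covers the exposed single strands, FEN1 and LIG1 join the pieces of the lagging strand, and ribonucleotide reductase, thymidylate synthase and thymidine kinase feed the polymerases with deoxynucleotides. Many of these genes are transcribed at the passage from G1 into S phase by E2F factors, so their mRNA is known to be more abundant in cycling than in resting cells.

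Human cancer cell lines were transfected, and each array compared RNA of transfected cells (Cy5) with RNA of mock cells of the same line (Cy3), which the labels give as without transfection, so no control oligonucleotide stood in the comparison. miR-139-5p and miR-139-3p were each given to the renal cancer lines A498 and 786-O, so that n = 2 arrays per strand are 2 cell lines. si-GINS1_1 and si-GINS1_2, called siRNA 1 and siRNA 2 below, were given to the breast cancer line MDA-MB-231 with 1 array each, so that the si-GINS1 group holds 2 siRNAs. The colorectal cancer line HCT116 received either strand of miR-490, on 1 array per strand. Both arrays of a line carry the same second code in their deposited names, but the labels do not say whether the mock RNA was 1 extract, and comparisons within a line may therefore share their control. No dyes were swapped. Nothing in the labels says that arrays came from separate cultures, so p-values measure only the spread between these arrays. Every value is a log2 ratio of transfected over mock unless it is called a level or a difference, and the number of arrays limits the precision of all of them.

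An array had 24981 to 29685 of its 58201 probes well above background. Of 5 renal markers 4 were above background in mock A498 and 786-O and 3 in the other lines, PAX8 having a Cy3 level of 8.13 and 8.06 there, 6.71 in the breast line and 6.31 in HCT116. In HCT116, CDX2 had a level of 7.61 and was not well above background in the other lines, while CDH17, LGR5 and VIL1 were not above background in any line and CDX1 was above it in all 4, highest in A498 (7.12, against 6.81 in HCT116). So 2 of 5 colorectal markers were above background in HCT116 and 1 of 5 in each other line. Of 5 breast markers 5 were above background in MDA-MB-231, but 4 or 5 were in the other lines too.

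The transfected miRNAs are shown because the array groups are named for them. Their mature sequences from RefSeq (GRCh38.p14) follow with the seed, bases 2 to 8, in capitals. The hairpin of miR-139 lies on chromosome 11 and that of miR-490 on chromosome 7, and no seed is shared between the 4 strands.
hsa-miR-139-5p (chr11:72615102-72615124, minus strand): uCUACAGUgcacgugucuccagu
hsa-miR-139-3p (chr11:72615066-72615088, minus strand): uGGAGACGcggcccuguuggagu
hsa-miR-490-5p (chr7:136903205-136903224, plus strand): cCAUGGAUcuccaggugggu
hsa-miR-490-3p (chr7:136903242-136903263, plus strand): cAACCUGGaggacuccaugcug
The bases that pair with these seeds were looked for in the probe sequences of the array. The match to miR-139-5p, ACTGTAG, lay in 0.32% of all probes and in the RFC1 probe among those of the 38 genes. The match to miR-490-5p, ATCCATG, lay in 0.448% of probes and in the RPA3 probe. No probe of the 38 genes held the match to miR-139-3p (CGTCTCC) or to miR-490-3p (CCAGGTT). A probe covers a short stretch of a transcript, so these matches describe the probes alone.

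Promoter windows of 33 of the 38 genes were found in the RefSeq table (GRCh38.p14), each running from 250 bases before to 50 bases after the start site. POLD3, DSCC1, DNA2, RPA2 and RPA3 had no entry. An E2F word (TTTCGCGC, TTTGGCGC, TTTCCCGC or TTTGCCGC, on either strand) lay in 10 of 33 windows, 30.3%, and in 3.33% of 27305 promoters. A CCAAT box lay in 57.6% of the windows and in 35.7% of all promoters. The CHR words TTTGAA and TTCGAA lay in 6.06% of the windows and in 16.6% of all promoters. The E2F words are printed for 7 of these 10 genes, picked with their siRNA results below known. The word is in capitals with 11 bases either side.
UHRF1 (chr19:4909476-4909505, plus strand): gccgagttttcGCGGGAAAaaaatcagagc
DTL (chr1:212035729-212035758, plus strand): cgtgacgtcagTTTGGCGCggagtttggcg
TYMS (chr18:657603-657632, plus strand): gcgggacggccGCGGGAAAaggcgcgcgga
POLE2 (chr14:49688201-49688230, minus strand): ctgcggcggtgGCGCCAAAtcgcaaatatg
LIG1 (chr19:48170440-48170469, minus strand): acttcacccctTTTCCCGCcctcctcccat
PCNA (chr20:5126663-5126692, minus strand): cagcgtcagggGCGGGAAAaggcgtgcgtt
POLA1 (chrX:24693770-24693799, plus strand): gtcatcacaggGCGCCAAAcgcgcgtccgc
The other 3 genes with an E2F word were POLA2, POLE and RFC3. A match is a description of the letters and no measure of binding.

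GINS1, a subunit of the GINS complex of the replicative helicase, was the target of both siRNAs. Its probe (hg19 chr20:25429111-25429170) had a log2 ratio of -1.31 with siRNA 1 and -1.92 with siRNA 2, and between -0.11 and 0.55 on the other 6 arrays. The mean fell by 1.61 ± 0.43 (SD, n = 2) (SE 0.15), and limma gave an adjusted p of 0.0174. The call was lost with the scanner's own log ratio, where limma gave a mean of -1.87 with an adjusted p of 0.0560, and with another variance model, at 0.0504.

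The 38 genes stood on opposite sides of mock with the siRNAs. With siRNA 1, 34 of 38 genes lay above 0, against 53.4% of all genes on that array, and their median was 0.43 against 0.01 for all genes. With siRNA 2, 4 of 38 lay above 0, against 51.6% of all genes, and the median was -0.62 against 0.01. In 30 of 38 genes the ratio was above 0 with siRNA 1 and below 0 with siRNA 2, a pattern of 21.5% of all genes, and in 0 of 38 was it the other way round, a pattern of 20.4%. POLA1, PCNA, RFC5 and RRM2 lay below 0 with both (27.5% of all genes), and POLD2, RFC1, RPA2 and WDHD1 above 0 with both (30.7%). With median centring the medians became 0.91 against 0.18 for all genes with siRNA 1, and -0.38 against 0.08 with siRNA 2. Then 37 of 38 genes lay above 0 with siRNA 1, POLA1, PCNA and RFC5 among them at 0.21, 0.39 and 0.29, which left RRM2 alone below 0 with both and 7 genes above 0 with both. At 0.5 or more with siRNA 1 were 17 of 38 genes (7.81% of all genes), and at 1 or more 3 (0.945%), namely CHAF1A, DTL and POLE3. At -0.5 or less with siRNA 2 were 23 of 38 (6.28%), and at -1 or less 5 (1.29%), namely TK1, UHRF1, TYMS, PCNA and CHAF1B. In bulk RNA, fewer cells that express a gene and less of its RNA per cell cannot be told apart.

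**Figure D1:**
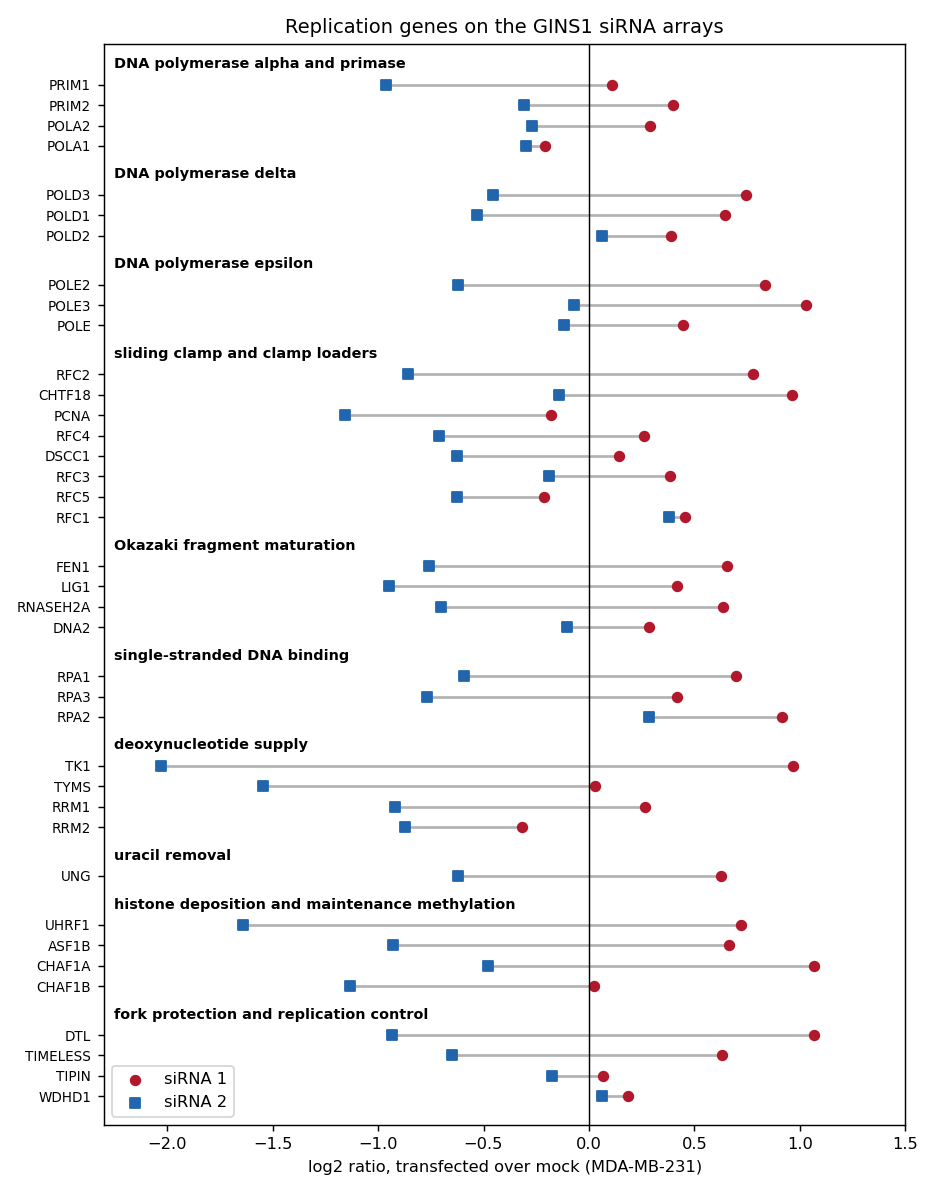
Log2 ratio of transfected over mock (horizontal axis) of the 38 genes, by role, on the siRNA 1 array (circles) and the siRNA 2 array (squares) in MDA-MB-231, 1 array each, with a line joining both values of a gene. The circle lies to the right of the square in all 38 rows, and 30 lines cross 0.

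Subtracting the siRNA 2 ratio from the siRNA 1 ratio removes a fixed dye bias of a probe. With 1 array per siRNA this difference has no replicate, so genes are described by a rule of size, a difference of 1 log2 unit or more. The difference was above 0 in 38 of 38 genes, against 50.4% of 21366 genes. It reached 1 in 22 of 38, against 2.81% of all genes, and -1 or less in 0 of 38, against 2.54%. The median difference was 1.13, against 0.00230 for all genes. GINS1 itself was 0.61 higher with siRNA 1 than with siRNA 2, and its part in the differences of the 38 genes was not tested. The size rule ran between PRIM1, at 1.07, and PCNA, at 0.98. The sign held in 38 of 38 genes with the scanner log ratio, with median centring, with a smaller background offset and without background correction.

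**Figure D2:**
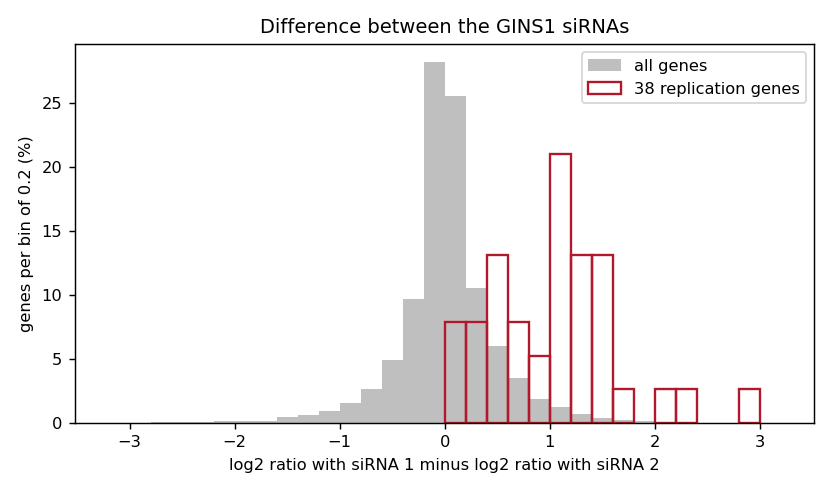
Difference of the log2 ratio with siRNA 1 less that with siRNA 2 (horizontal axis) for 21366 genes (filled bars) and the 38 genes (outlined bars), as percent of genes in bins of 0.2 log2 units. The bars of all genes centre near 0, and those of the 38 genes lie from 0.08 to 2.99 with a median of 1.13.

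Deoxynucleotide supply held the gene with the largest difference. TK1, the cytosolic thymidine kinase of the salvage pathway (probe at hg19 chr17:76170193-76170252), had a ratio of 0.97 with siRNA 1 and -2.03 with siRNA 2. Its difference of 2.99 log2 units is 7.97-fold, and its values on the 6 miRNA arrays ran from -0.36 to -0.02. The mock channels of the siRNA arrays differed by 0.28 for TK1. TYMS, the thymidylate synthase that makes dTMP from dUMP, was at 0.03 with siRNA 1 and -1.55 with siRNA 2, a difference of 1.58. The ribonucleotide reductase subunits differed from each other in where they lay. RRM1, the large subunit, was at 0.27 with siRNA 1 and -0.92 with siRNA 2, a difference of 1.18. RRM2, the small subunit, was below mock with both, at -0.32 and -0.87, a difference of 0.56. With the scanner log ratio these were -0.51 and -1.67. So all 4 genes of this role lay at -0.87 or below with siRNA 2, while with siRNA 1 they ran from -0.32 to 0.97. With median centring RRM1 and RRM2 were at -0.60 and -0.77 with siRNA 2. The siRNA 1 ratios then ran from -0.04 for RRM2 to 1.765 for TK1, with TYMS at 0.70. UNG, the uracil glycosylase that removes misincorporated uracil from DNA, was at 0.63 and -0.62, a difference of 1.25.

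The genes of histone deposition and maintenance methylation all passed the size rule, 4 of 4, with a median difference of 1.57. UHRF1, which recognises hemimethylated DNA behind the fork (probe at hg19 chr19:4962065-4962124), had a ratio of 0.72 with siRNA 1 and -1.64 with siRNA 2. Its difference was 2.36, or 5.12-fold, and 1.35 on its second probe. The histone chaperone ASF1B was at 0.66 and -0.93, a difference of 1.59. CHAF1A and CHAF1B are subunits of the chromatin assembly factor CAF-1, which PCNA brings to new DNA. CHAF1A was at 1.07 with siRNA 1 and -0.48 with siRNA 2, a difference of 1.55, and its second probe gave 0.92. CHAF1B was at 0.02 and -1.13, a difference of 1.16. Thus CHAF1A departed from mock mainly with siRNA 1 and CHAF1B with siRNA 2, although their differences were alike in size.

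Among genes of fork protection and replication control, 2 of 4 passed. DTL, the substrate receptor of the CRL4 ubiquitin ligase that acts on proteins bound to PCNA (probe at hg19 chr1:212277852-212277911), was at 1.07 with siRNA 1 and -0.94 with siRNA 2. Its difference was 2.003, or 4.01-fold. TIMELESS, of the fork protection complex, was at 0.63 and -0.65, a difference of 1.28. Its partner TIPIN stayed near mock with both siRNAs, at 0.06 and -0.18, but median centring put it at 0.53 and 0.05. WDHD1, which tethers polymerase alpha to the helicase, was at 0.18 and 0.06, a difference of 0.12 that was among the 3 smallest of the 38. DTL, WDHD1, PRIM1 and CHAF1B were printed in 10 spots each, and the SD of the log2 ratio over those spots was between 0.02 and 0.10 on an array, which measures the spread within an array alone.

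Of the genes that mature Okazaki fragments, 3 of 4 passed, with like values. The flap endonuclease FEN1 was at 0.65 with siRNA 1 and -0.76 with siRNA 2, a difference of 1.41. The DNA ligase LIG1 was at 0.42 and -0.95, a difference of 1.37. RNASEH2A, the catalytic subunit of the RNase H2 that cuts RNA in RNA-DNA hybrids, was at 0.64 and -0.70, a difference of 1.34. DNA2, a nuclease and helicase for long flaps, was at 0.28 and -0.10, and its probe was among the dim ones, with a mean log2 intensity of 6.03, where the background offset pulls ratios toward 0.

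RPA has a large, a middle and a small subunit, and the middle one stood apart from the others by its values. RPA1, the large subunit, was at 0.70 with siRNA 1 and -0.59 with siRNA 2, a difference of 1.29. That of its second probe was 0.51, so with the median over probes RPA1 was at 0.90 and no longer passed the size rule. RPA3, the small subunit, was at 0.42 and -0.77, a difference of 1.18. RPA2, the middle subunit, was above mock with both, at 0.91 and 0.29, a difference of 0.63.

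In the polymerases, 5 of the 10 genes passed the size rule. For polymerase epsilon, the leading strand enzyme, POLE2 was at 0.83 with siRNA 1 and -0.62 with siRNA 2, a difference of 1.45. The histone-fold subunit POLE3 was at 1.03 and -0.07, a difference of 1.100. The catalytic subunit POLE was at 0.45 and -0.12, a difference of 0.57. For polymerase delta, which extends the lagging strand, the catalytic subunit POLD1 was at 0.65 and -0.53 and the accessory subunit POLD3 at 0.74 and -0.45, with differences of 1.18 and 1.20. POLD2, also an accessory subunit, was at 0.39 and 0.06. In the alpha and primase complex, the catalytic primase subunit PRIM1 was at 0.11 and -0.96, a difference of 1.07, and its partner PRIM2 at 0.40 and -0.31. POLA2, the regulatory subunit, was at 0.29 and -0.27. POLA1, the catalytic subunit, was at -0.21 with siRNA 1 and -0.30 with siRNA 2, a difference of 0.09. Within each polymerase the subunits differed in size of difference, and that of POLA1, a gene with an E2F word printed above, was among the 3 smallest of the 38.

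Of the sliding clamp and its loaders, 2 of 8 passed. RFC2, a small subunit of RFC, was at 0.78 with siRNA 1 and -0.86 with siRNA 2, a difference of 1.64. CHTF18, which replaces RFC1 in the loader that acts in sister chromatid cohesion, was at 0.96 and -0.14, a difference of 1.11. PCNA, the clamp itself, was at -0.18 with siRNA 1, or 0.39 with median centring, and at -1.16 with siRNA 2. Its difference of 0.98 lay at the border of the size rule, and its second probe gave 1.004. RFC4 was at 0.26 and -0.71, a difference of 0.97. DSCC1, RFC3 and RFC5 had differences of 0.77, 0.58 and 0.41. RFC1, the large subunit (probe at hg19 chr4:39290075-39290134), was at 0.46 and 0.38, and its difference of 0.08 was the smallest of the 38 genes. Hence the large subunit of RFC lay above mock with both siRNAs, while the small subunits RFC2, RFC3, RFC4 and RFC5 lay below mock with siRNA 2, although the second RFC3 probe was at 0.10.

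In all, 8 genes had more than 1 probe, and the 10 further probes all had a difference above 0, from 0.24 to 1.35. In the genes with an E2F word in the promoter window the median difference was 1.17 (10 genes), and in those without it was 1.16 (23 genes).

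Taken as a mean over both siRNAs, the opposite values cancelled. The median of the 38 genes was -0.02 against 0.01 for all genes. By limma on the n = 2 arrays, RFC1 rose by 0.42 ± 0.06 (SD; SE 0.05; adjusted p 0.0254), and it was the 1 gene called higher, 2.63% of the 38 against 3.55% of 21366 genes. Called lower were 0 of 38, against 3.84% of genes, and 6 of 38 had an unadjusted p under 0.05, against 26.8% of genes. The call of RFC1 was lost with the scanner log ratio, at a mean of 0.50, and with an offset of 10, at 0.44.

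Other replication genes were set beside the 38. Of 18 helicase and origin genes 9 had a difference of 1 or more, against 2.81% of all genes, and 0 of -1 or less, against 2.54%, and their median was 1.07. The largest differences were those of CDC45 at 2.38, GINS2 at 2.28 and CDT1 at 1.91, a helicase cofactor, a GINS subunit and a licensing factor. By limma on the mean of both siRNAs, 1 of 18 was called lower, GINS1 itself, against 3.84% of all genes, and 0 higher, against 3.55%. Of 14 further polymerase and clamp factors 4 had a difference of 1 or more (2.81% of all genes) and 1 of -1 or less (2.54%), with a median of 0.33. Its largest were KIAA0101, the PCNA-associated factor PCLAF, at 2.33, the translesion polymerase POLH at 1.94 and the exonuclease EXO1 at 1.60, and the 1 at the other end was POLD4, the small subunit of polymerase delta, at -1.03, with a ratio of 0.04 with siRNA 2. The mean of RBBP4, the histone-binding subunit of CAF-1, fell by 1.02 with a limma adjusted p of 0.0285, the 1 gene of the 14 called lower (3.84% of all genes), and 0 were called higher (3.55%). Its call was lost with dye bias removed, at -0.61 and an adjusted p of 0.139 in limma, and with the median over probes its mean was -0.48. The calls of RBBP4 and of TK2 below were also lost with the scanner log ratio. RBBP4 was at -1.30 with siRNA 1 and -0.75 with siRNA 2, while its partner CHAF1A was at 1.07 with siRNA 1. Low RBBP4 ratios were not limited to the siRNA arrays. In HCT116 the 5p strand of miR-490 gave -1.35 for RBBP4, and the 3p strand gave -0.85. On the miR-139 arrays RBBP4 ran from -0.26 to 0.04. Whether its fall was particular to the siRNAs was not tested.

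Among 15 other genes of nucleotide supply 2 had a difference of 1 or more (2.81% of all genes) and 0 of -1 or less (2.54%), and the median was 0.02. These were DUT, which breaks down dUTP, at 2.04 and DTYMK, which phosphorylates dTMP, at 1.24. Both act beside TYMS and TK1 in thymidine nucleotide supply. The next in size was CAD, which starts pyrimidine synthesis, at 0.42. DUT was at 0.05 with siRNA 1 and -1.99 with siRNA 2, much as TYMS was. The mitochondrial thymidine kinase TK2 was at -0.63 with siRNA 1 and -0.54 with siRNA 2, and was the 1 gene of the 15 called lower by limma, against 3.84% of all genes, with 0 called higher, against 3.55% (mean -0.59, adjusted p 0.0151).

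miR-139 left the 38 genes close to mock in both renal lines. On the 4 arrays they ran from -0.36 to 0.47, and 5 of 152 values lay at 0.3 or further from 0. The share of all genes at 0.3 was not counted. At 0.5 or above lay at most 0.615% of all genes on an array, and at -0.5 or below at most 1.56%. Closeness to mock was therefore not particular to the 38 genes. By limma 0 of 38 genes were called with miR-139-5p (n = 2 arrays), against 0.0164% of 18262 genes, 0 with miR-139-3p (n = 2), against 0% of 17950, and 0 between the strands, against 0% of 17485. At an unadjusted p under 0.05 were 0, 0 and 1 of 38, against 2.81%, 4.89% and 0.698% of genes. The 1 was RFC1. It was at -0.12 in A498 and -0.17 in 786-O after the 5p strand, and at 0.14 and 0.02 after the 3p strand. All 8 arrays shared 1 estimate of the spread of a gene, which held the gap between the siRNAs. For TK1 the SE with miR-139-5p was 0.67, while the SD of its 2 arrays was 0.16. Genes that differed between the siRNAs could therefore hardly be called here, and RFC1 differed least. The counts of 0 thus add little to the ratios themselves.

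TYMS had the highest ratio on the miR-139 arrays. In A498 it was at 0.47 after the 5p and 0.28 after the 3p strand, in 786-O at 0.16 and 0.14, so above mock on all 4 arrays. PCNA ran from 0.14 to 0.23 on the 4 arrays, but its second probe was at -0.05 with miR-139-5p in 786-O. DTL ran from -0.28 to -0.10, and with median centring from -0.23 to 0.03. The RPA subunits parted on 1 array, miR-139-3p in A498, where RPA1 was at 0.36 and RPA2 at -0.36. In 786-O with the same strand they were at 0.05 and -0.04. With median centring in place of loess, 36 of 38 genes in place of 23 (53% of all genes) lay above 0 with miR-139-5p in A498, where the median of all genes moved to 0.14. In 786-O, miR-139-3p gave 34 in place of 17 (53% of all genes), so no direction is given for the 38 genes there.

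**Figure D3:**
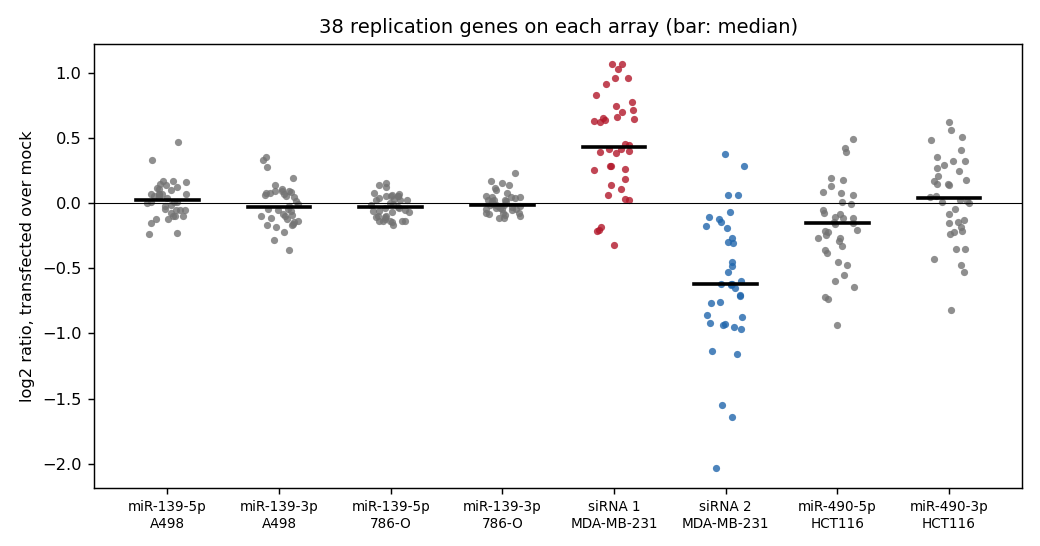
Log2 ratio of transfected over mock (vertical axis) of the 38 genes on each of the 8 arrays, 1 point per gene with horizontal jitter, the bar being the median. The points of the miR-139 arrays lie between -0.36 and 0.47, and the medians of the siRNA arrays are 0.43 and -0.62.

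With miR-490-5p in HCT116, 10 of 38 genes lay above 0, against 53.4% of all genes, and the median was -0.15 against 0.01. Median centring raised the count to 15, with 12 above the median of all genes, which was then 0.06. None reached 1 log2 unit either way, against 1.39% of genes, and 6 of 38 lay at -0.5 or below, against 5.55%. With 1 array per strand these values have no replicate. DTL was lowest at -0.94, and lay on the mock level with miR-490-3p. The partners TIMELESS and TIPIN were both low with miR-490-5p, at -0.73 and -0.72. TYMS was at -0.64, CHTF18 at -0.60 and LIG1 at -0.55. RPA3, whose probe held the miR-490-5p seed match, was at -0.45 after that strand and -0.21 after the other.

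With miR-490-3p, 22 of 38 genes lay above 0, against 51.8% of all genes. Under median centring 31 did, but the median of all genes then moved to 0.08, and 28 of the 38 lay above that. None reached 1 log2 unit, against 1.07% of genes. At 0.5 or above were 3 of 38, against 3.97% of genes, namely RPA2 at 0.62, POLE3 at 0.56 and POLA1 at 0.51. At -0.5 or below were 2 of 38, against 3.77%, namely TIMELESS at -0.82 and PRIM1 at -0.53. TIMELESS was thus low with both strands, while TIPIN was at 0.21 and TYMS at 0.15 with miR-490-3p.

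Taking miR-490-3p less miR-490-5p, the difference of the 38 genes ran from -0.75 to 0.94, with a median of 0.19 against -0.00240 for all genes. It was above 0 in 27 of 38, against 49.4% of genes, and 0 of 38 reached 1 either way, against 1.28%. DTL and TIPIN held the largest differences, at 0.94 and 0.93, and RFC5 the lowest, at -0.75, from 0.40 with the 5p and -0.35 with the 3p strand.

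**Figure D4:**
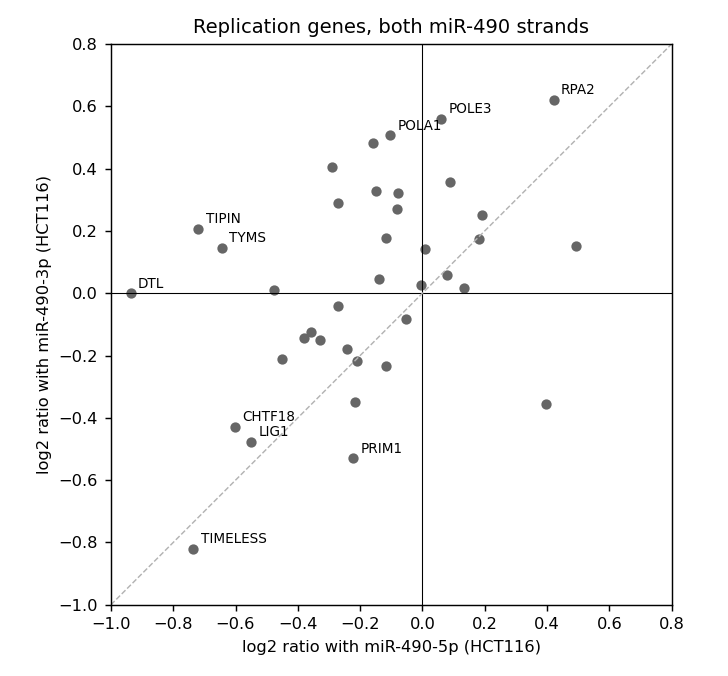
Log2 ratio of transfected over mock in HCT116 with miR-490-5p (horizontal axis) and miR-490-3p (vertical axis), 1 point per gene for the 38 genes, 1 array per strand, named where either ratio is 0.5 or more from 0, with the dashed line marking equal ratios. DTL, TIPIN and TYMS lie far left near or above 0 on the vertical axis, and TIMELESS is low on both axes.

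The mock channels also gave the level of each gene in the untransfected lines, as log2 Cy3 brightness after quantile normalization. Each line was counted as 1 sample, so the levels are described without a test, and lines are compared within a gene. A498 had the lowest level for 34 of 38 genes, against 28.1% of 22786 genes. The level of POLE in A498, 5.88, was not well above background. 786-O had the highest for 21 of 38 (22.4% of genes), HCT116 for 12 (30% of genes), MDA-MB-231 for 4 (25%) and A498 for 1 (22.5%). The highest and lowest lines were 1 log2 unit or more apart in 21 of 38 genes, against 28% of genes. Both mock channels of a line differed over the 38 genes with an SD between 0.07 and 0.11, and by at most 0.28 (TK1 in MDA-MB-231).

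The median of the 38 genes in A498 was 0.82 below that in 786-O, 0.57 below MDA-MB-231 and 0.82 below HCT116, as the median of differences within genes, where for all genes it was between -0.04 and -0.01. At 1 or more below were 11, 9 and 13 of 38 genes, against 4.86%, 6.71% and 7.75% of all genes. Between the other lines the median differences of the 38 genes were smaller, at 0.21, 0.19 and -0.15. A498 and 786-O are both renal lines, and 37 of 38 genes had the higher level in 786-O. For all genes the median of A498 less 786-O was -0.015, and the share of them higher in 786-O was not counted.

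The primase subunit PRIM2 had the largest range, with a level of 7.08 in A498, 8.36 in MDA-MB-231, 8.35 in HCT116 and 9.19 in 786-O, so MDA-MB-231 and HCT116 were not apart beyond the mock spread. These levels rest on the brightest of its 4 probes, with a mean log2 intensity of 8.40. Its further probes were dim, at 6.06 to 6.08. UHRF1 followed the order A498 (7.10), 786-O (8.37), MDA-MB-231 (8.83) and HCT116 (9.04). RFC5 was at 7.95 in A498, 8.77 in MDA-MB-231, 9.64 in HCT116 and 9.83 in 786-O. UNG and TIMELESS were highest in HCT116, UNG at 11.37 against 9.58 in A498 and TIMELESS at 10.67 against 8.91.

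PCNA was the exception to the order of the lines, with its highest level in A498, 10.15, then 9.98 in HCT116, 9.81 in MDA-MB-231 and 9.75 in 786-O. RFC1 was lowest in MDA-MB-231, at 7.31, and highest in 786-O, at 8.56. RPA3 and DNA2 were lowest in HCT116, and the levels of DNA2 spanned only 0.06, within the spread of the mock channels. TK1 was at 12.11 in A498, 12.86 in MDA-MB-231, 13.11 in HCT116 and 13.33 in 786-O.

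**Figure D5:**
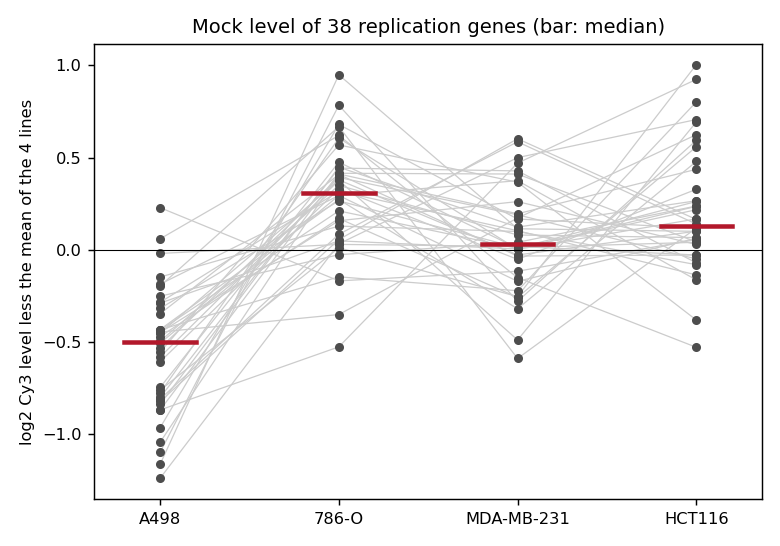
Log2 Cy3 level of each of the 38 genes in mock cells less its mean over the 4 lines (vertical axis) by cell line, 1 point per gene (mean of 2 mock channels), grey lines joining a gene and bars showing medians. A498 is lowest for 34 of 38 genes and 786-O highest for 21.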

How the data were processed

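RNA of 8 transfections was hybridised with mock RNA on Agilent 2-colour arrays. Per the file headers, the slide was read with Feature Extraction 11.5.1.1 and annotated on hg19. The deposited intensity columns are the mean spot brightness and median local background of each channel, linear and not normalized. The authors also deposited the scanner's log10 ratio of Cy5 over Cy3, corrected for background and dye, and the series table held the same log10 values. All columns of that table found a sample.

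Each array had 62976 spots, of which 2075 were controls, and 112 to 194 outlier spots were left out. Median brightness was 19.8 to 25.02 against a background of 14 to 17. Background was corrected by normexp (offset 50, which pulls dim ratios toward 0), and ratios were normalized by loess within each array, without control spots, in limma 3.58.1 (R 4.3.3, statmod 1.5.0). Spots of a probe were averaged, and the probe with the highest mean intensity stood for a gene. The scanner's flags set which probes were well above background. Groups of 2 arrays were tested against 0 with limma in 1 fit of 8 arrays with 5 group coefficients. A probe entered if each array of the group had it well above background in either channel, p-values were adjusted by Benjamini-Hochberg over all probes tested, and an adjusted p under 0.05 was called. A test against 0 does not include how mock cells vary. Comparisons with 1 array per side used a size rule (1 log2 unit, and 0.5 for miRNA arrays) and no test of their own. Cy3 levels were quantile normalized over the 8 arrays. The fit was run on simulated data with independent noise. These held no dye bias and no shared mock, so nothing on the real arrays is concluded from them. The miR-139 arrays pair through the cell line, and arrays of a line deviated from their group means with a correlation of 0.0753 over 22178 probes.

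The named genes were GINS1, genes at 1 log2 unit or more between the siRNAs, those called by limma, those at 0.5 or more on a miRNA array, the 3 smallest differences between the siRNAs, and the 3 largest of each further list. Other genes of the 38 were named to complete each role, and the further genes of the lists that limma called were added after their values were seen. The members and lists were chosen with earlier results of these data known. Alternatives were the scanner log ratio, median centring, an offset of 10, no background correction, the median over probes, no filter, other variance models, a limma fit of the siRNA difference with the spread of the miR-139 arrays, dye bias removed and each array left out. Python 3.11.15, pandas 2.3.3 and matplotlib 3.10.9 were used for sequences and plots. Protein sequences were not used here, and 1 gene was left out of the nucleotide supply list and is not reported here.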

Additional observations from a re-analysis of the deposited data

Results flagged for a closer look

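The median of the 38 genes had opposite signs with the siRNAs, at 0.432 with siRNA 1 and -0.623 with siRNA 2, a difference of 1.06 between the medians. This difference was not tested, since each siRNA had 1 array.

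Of the 38 genes, 5 lay above mock on both miR-139 arrays of A498 and below mock on both of 786-O, and the differences were not tested. Between the mean ratios of the lines they came to 0.073 for POLE2, 0.134 for RFC3, 0.17 for LIG1, 0.0561 for DNA2 and 0.204 for RRM2. The share of all genes with this pattern was not counted, so the 5 are not read as a trait of the 38. With median centring POLE2 and LIG1 lay above 0 with miR-139-3p in 786-O, at 0.04 and 0.08. With the scanner log ratio DNA2 lay below 0 with miR-139-5p in A498, at -0.09. No group had enough arrays to look for a single array far from the others.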

How the results depend on the processing

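Among the 38 genes, the number past 1 log2 unit between the siRNAs was 22 and lay between 21 and 29 with other scalings, probe rules and filters, with 38 of 38 above 0 under each scaling. The 29 came with the scanner log ratio, where 8.69% of all genes reached 1, in place of 2.81%. A limma fit that borrowed the spread of the miR-139 arrays, from other lines and other RNAs, put 31 of 38 genes past the limit as higher (13.9% of all genes) and is no test of the siRNAs. With other scalings 27 to 30 genes lay above 0 with siRNA 1 and below 0 with siRNA 2. For the mean of both siRNAs, where 1 gene was called, the scanner log ratio, the offset of 10, a variance trend with robust prior and a fit of only the si-GINS1 arrays gave 0 and lost the call of RFC1 (those of GINS1, TK2 and RBBP4 too, except at the offset of 10), and the cell line as random block gave 12. Leaving out 1 array gave 26 to 27 genes, 26 lower and 1 higher without siRNA 1 and 26 higher without siRNA 2, the lone array being assumed to vary like the other groups. Over all genes the count of 1580 became 62, 1226, 0, 0 and 8279 under those 5 settings, 5390 without siRNA 1, 7556 without siRNA 2, 418 with dye bias removed and 2451 with median centring. The cause was not tested. With miR-490-5p, 1 gene passed 1 log2 unit with the scanner log ratio, with the offset of 10 and without background correction. For all genes the shares were 8.72%, 2.77% and 2.36%. None of the 38 passed under the other settings. Between the miR-490 strands 1 gene passed with each of these scalings, against 9.68%, 3.16% and 2.72% of all genes. With median centring 2 passed, against 2.03%. The mock levels were 1 log2 unit apart in 32 genes by the processed green signal in place of 21, and 786-O was then highest for 16 genes, while A498 stayed lowest for 34. Shares of all genes were not counted with that signal, so the 32 has no background beside it. The miR-139 counts stayed at 0 under the alternatives run, and the contrast of the strands with the cell line as replicate block gave 0, so pairing changed no call. Leaving out arrays from that contrast was added after seeing the data. Dim probes such as that of DNA2 limit what can be read from small ratios.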
